A study of Mus musculus with 7 samples.

Results

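The transforming growth factor beta (TGF-beta) genes described here are the ligands Tgfb1, Tgfb2 and Tgfb3, the receptors Tgfbr1, Tgfbr2 and Tgfbr3, the signal carriers Smad2 and Smad3, the feedback inhibitor Smad7, and Tgfbi, which encodes a matrix protein that TGF-beta induces. They were taken by name, as core genes of the pathway whose ligands bind biglycan. No rule on measured values chose them, but earlier results of these data were known when they were chosen. These are 10 genes, against 16593 named genes on the array. A total of 9 of the 10 had at least 1 probe under their name, and all 9 were tested, among 10448 tested genes. Smad7 had no probe under that name in the annotation used and was not analysed here.

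TGF-beta ligands are secreted as latent complexes that are held in the extracellular matrix until they are activated. The active ligand binds the type II receptor Tgfbr2, which recruits and phosphorylates the type I receptor Tgfbr1; the type III receptor Tgfbr3, or betaglycan, presents ligand to them. The activated receptor phosphorylates Smad2 and Smad3, which enter the nucleus with Smad4 and regulate target genes, and Smad7 restrains the signal. Biglycan, the product of Bgn, is a small leucine-rich proteoglycan of the matrix that binds TGF-beta. In brain, TGF-beta signalling is known for keeping microglia in their mature state and for its part in vessel walls and in scar formation.

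RNA from the hypothalamus of male C57BL/6 mice, 13 weeks old and all carrying a Bgn knockout, was measured on 7 Illumina bead arrays. The 2 untreated samples, replicates 1 and 3, had the chow diet alone, and the 5 DHA samples, replicates 1 to 5, were fed docosahexaenoic acid (DHA, an omega-3 fatty acid), given for about 6 weeks as 1.2% capsule oil in a chow that also held 0.5% flaxseed oil. The series text speaks of 1 more untreated mouse, left out by its submitters as an outlier, which was not analysed here. No wild-type mice are among these samples, so every level below is that of a biglycan knockout, and the sources used here do not say how the knockout was made. The Bgn probe was detected on all 7 arrays, at 8.71 and 8.40 on the log2 scale in the untreated samples and 8.03 to 8.31 in the DHA samples. Where that probe lies relative to the deleted part is not given, so it does not check the genotype.

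The arrays differed in brightness and in the levels of cell type markers. The DHA arrays had 14251 to 14534 detected probes (detection p under 0.05) and the untreated ones 13873 to 13970, and the median unnormalised signal was 174.5 to 189.5 against 167.4 to 173.2. All 9 hypothalamic neuron markers with a probe were detected on all 7 arrays, and their summed linear signal overlapped between the groups. The 17 tested markers of meninges and fibroblasts summed to 15353 and 8215 in untreated 1 and 3 and to 20854 to 31093 in the DHA samples. All 17 were higher with DHA (48.2% of all tested genes were), with a median log2 fold change of 1.09. Slc22a2, 1 of the 17, was detected on neither untreated array and tested only because DHA arrays detected it, so its direction adds no support. Of the 22 such markers with a probe, 11 were detected on all arrays and 6 on neither untreated array; Foxc2, Col1a2, Col3a1 and Slc6a20a, which belong to meningeal and fibroblast identity, were detected on none. The striatal marker score, the mean log2 level of 5 tested genes, was 10.22 in untreated 1 and 8.81 to 9.26 in the other 6 arrays.

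The diet comparison addressed whether DHA feeding was accompanied by other levels of these genes in biglycan-deficient hypothalamus. The receptors Tgfbr2 and Tgfbr3 and the matrix gene Tgfbi were 1.65-fold, 1.64-fold and 1.45-fold higher with DHA, and Tgfbr1 was higher by 0.18 on the log2 scale, with every DHA array above both untreated arrays in each case. Tgfb1, Tgfb2, Tgfb3, Smad2 and Smad3 overlapped between the groups. No probe of these genes passed an adjusted p of 0.05 in limma (Benjamini-Hochberg over 15284 probes), and neither did any other: 0% of tested probes were called, and the smallest adjusted p was 0.0968. At an unadjusted p under 0.05, 3 of the 9 genes were higher and 0 lower, where 5.38% of all tested genes were higher and 4.52% lower; over all probes this was 1568 probes, 792 higher and 776 lower. The groups did not overlap, with DHA above, for 4 of the 9, against 8.65% of all tested genes, and with DHA below for 0 of the 9, against 8.79%. By sign alone 6 of the 9 were higher, against 48.2% of all genes, with a median log2 fold change of 0.18 beside -0.01 over all genes. In whole tissue, fewer cells of a type and less RNA per cell cannot be told apart.

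**Figure D1:**
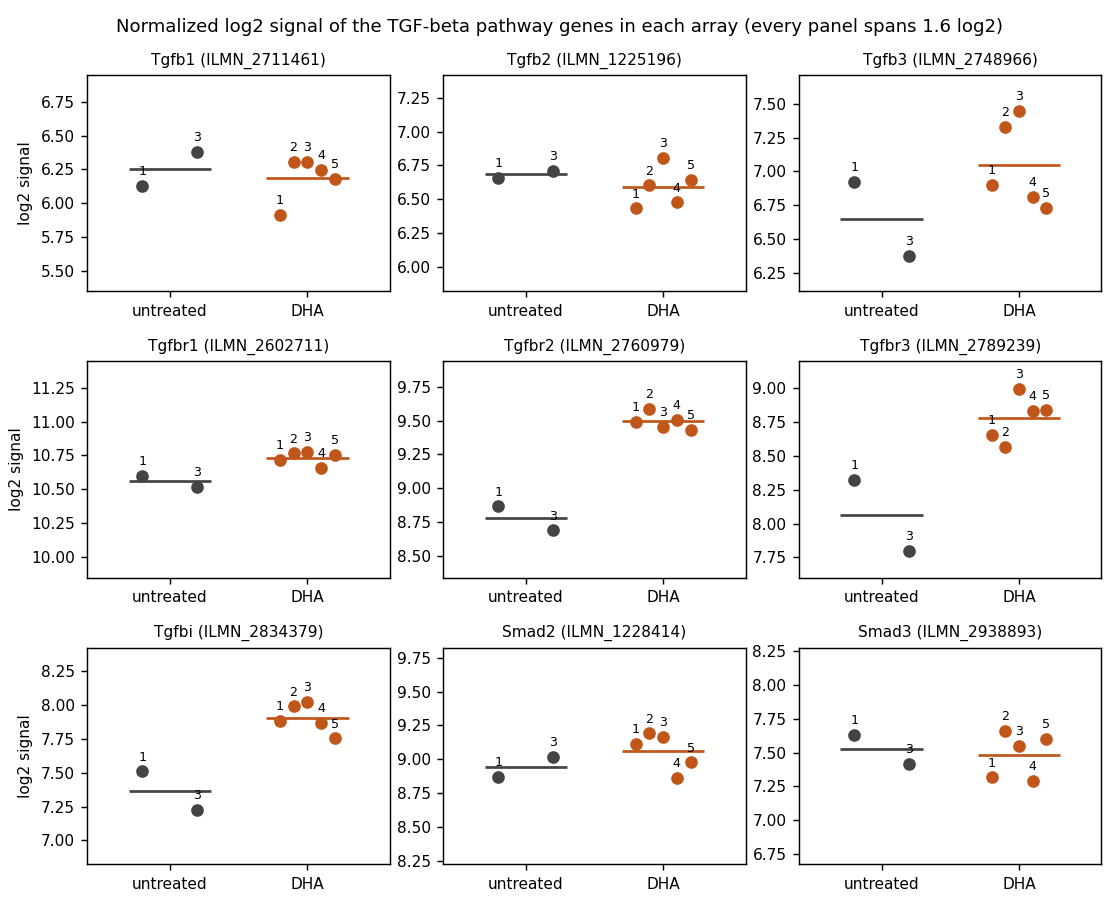
Normalised log2 signal of the brightest tested probe of each TGF-beta gene (one panel a gene; the vertical axes have equal spans, different levels and do not start at 0) in the 2 untreated and 5 DHA arrays, with each point 1 array, numbered by replicate, and each bar a group mean. For Tgfbr1, Tgfbr2, Tgfbr3 and Tgfbi all DHA points lie above both untreated points, while those of Tgfb1, Tgfb2, Tgfb3, Smad2 and Smad3 overlap.

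Among the receptors, Tgfbr2, the type II receptor that binds ligand first, gave the clearest separation. Its normalised log2 signal was 8.87 and 8.69 in untreated 1 and 3, and 9.49, 9.59, 9.45, 9.51 and 9.43 in DHA 1 to 5. The lowest DHA array therefore lay well above the higher untreated one, and the 5 DHA arrays were close together. The group means were 8.78 ± 0.13 (SD, n = 2) and 9.50 ± 0.06 (SD, n = 5). The log2 fold change was 0.72 (SE 0.09, 95% interval 0.50 to 0.93), with an adjusted p of 0.0989 in limma, which misses the threshold; by p it ranked 10 among the 15284 probes. Before normalisation, untreated 1 and 3 had signals of 550.2 and 512.1 and the DHA samples 798.5 to 952.7, so the deposited signals were separated too. Its call depended on the processing: on the authors' deposited normalized values the log2 fold change was 0.58 with an adjusted p of 0.0305 in limma, when 0.072% of probes passed as higher, and the adjusted p was 0.0048 when limma modelled an intensity trend with robust variances, where 0.301% passed as higher. Without background correction it was 0.0330. A second Tgfbr2 probe was detected on no array and was not tested.

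Tgfbr3, betaglycan, is the co-receptor that captures ligand, TGF-beta2 above all, for the signalling receptors. Its brighter probe read 8.32 and 7.80 in untreated 1 and 3, and 8.65, 8.56, 9.00, 8.83 and 8.84 in DHA 1 to 5. All DHA arrays were above both untreated arrays, and the untreated pair was farther apart than the lowest DHA array was from untreated 1. The log2 fold change was 0.72 (SE 0.17, 95% interval 0.32 to 1.11; limma adjusted p = 0.275). The size turned on the untreated arrays: it was 0.45 without untreated 3 and 0.98 without untreated 1. A dimmer Tgfbr3 probe, detected on neither untreated array and on 2 of the 5 DHA arrays, read 4.47 and 4.78 against 4.94 to 5.32. It was tested only because DHA arrays detected it, and its signals lay at the limit of detection, so no fold is given and it adds no support to the brighter probe.

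Tgfbr1, the type I receptor kinase that phosphorylates Smad2 and Smad3, read 10.60 and 10.51 in untreated 1 and 3, and 10.71, 10.76, 10.78, 10.66 and 10.75 in DHA 1 to 5. The groups did not overlap, but the gap between DHA 4 and untreated 1 was narrower than the untreated pair's own. This gave a log2 fold change of 0.18 (SE 0.09, 95% interval -0.02 to 0.37), and the limma adjusted p was 0.526. The other 3 Tgfbr1 probes were detected on no array.

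Tgfbi, whose product is a secreted adhesion protein that binds collagens and integrins, read 7.51 and 7.23 in untreated 1 and 3, and 7.89, 7.99, 8.03, 7.87 and 7.75 in DHA 1 to 5. Each DHA array was above both untreated arrays, DHA 5 by the least. The log2 fold change was 0.54 (SE 0.12, 95% interval 0.26 to 0.81; limma adjusted p = 0.228), and it was 0.40 without untreated 3 and 0.68 without untreated 1. The dimmer Tgfbi probe was detected on 0 of 2 untreated and 3 of 5 DHA arrays, at 5.01 and 4.85 against 5.12, 5.83, 6.31, 5.65 and 4.96. On it the groups overlapped, DHA 5 lying between the untreated arrays; against the lowest detected signal the DHA mean was at least 1.28-fold higher, with a limma adjusted p of 0.546. That probe was tested only because DHA arrays detected it, so its direction adds no support to the brighter probe.

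**Figure D2:**
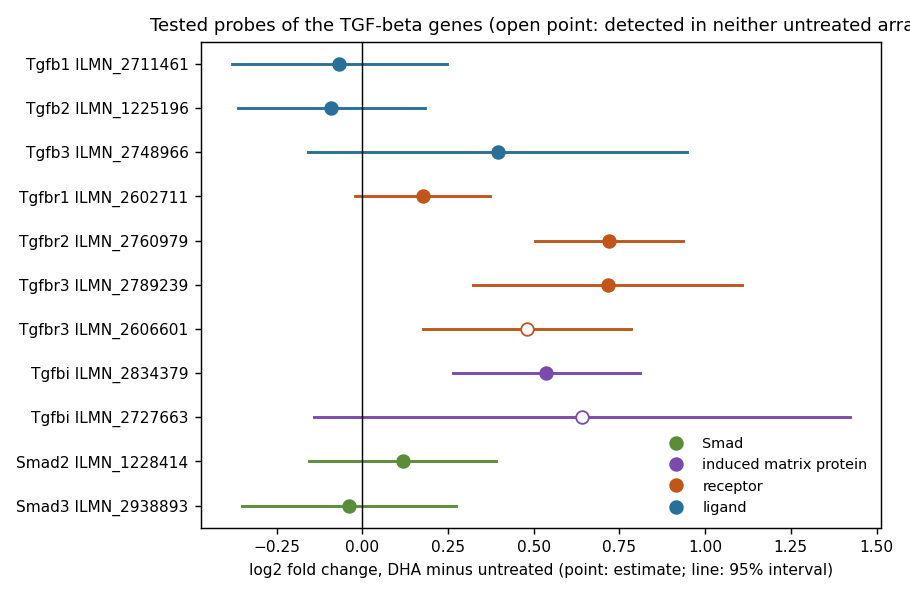
Log2 fold change, DHA minus untreated, of each tested probe of the TGF-beta genes with its 95% interval from limma (horizontal axis), 1 row a probe, coloured by role; open points were detected on neither untreated array, so their intervals are not read, and 0 marks no difference. The intervals of Tgfbr2 (0.50 to 0.93), the brighter Tgfbr3 probe (0.32 to 1.11) and the brighter Tgfbi probe (0.26 to 0.81) lie above 0, and those of Tgfb1, Tgfb2, Tgfb3, Tgfbr1, Smad2 and Smad3 include it.

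Tgfb3 was the ligand with the highest log2 fold change, 0.39 (SE 0.24, 95% interval -0.16 to 0.95; limma adjusted p = 0.599). It read 6.93 and 6.37 in untreated 1 and 3, and 6.90, 7.33, 7.45, 6.81 and 6.73 in DHA 1 to 5. Untreated 1 was above 3 of the 5 DHA arrays, and only untreated 3 was low, so the groups overlapped. Without untreated 3 the difference was 0.12, and without untreated 1 it was 0.67. The size of the difference thus depended on which untreated array was compared.

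Tgfb1, the main ligand of microglia and of immune cells, read 6.13 and 6.38 in untreated 1 and 3, and 5.91, 6.30, 6.30, 6.25 and 6.18 in DHA 1 to 5. The untreated arrays held the highest value, DHA 1 the lowest, and the rest lay between. For Tgfb1 the log2 fold change was -0.07 (SE 0.14, 95% interval -0.38 to 0.25; limma adjusted p = 0.884). Its unnormalised signal, 188.4 to 211.7 over the 7 arrays, stood only a little above the lowest signal called detected on them, 158.9 to 175.1, and its sign turned when untreated 3 or DHA 1 was left out.

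Tgfb2, the ligand of astrocytes and neurons in many brain regions, read 6.66 and 6.71 in untreated 1 and 3, and 6.43, 6.60, 6.80, 6.48 and 6.65 in DHA 1 to 5. The groups overlapped, with DHA 3 the highest array. Its log2 fold change was -0.09 (SE 0.12, 95% interval -0.36 to 0.18; limma adjusted p = 0.811), with unnormalised signals of 215.6 to 244.5.

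Smad2 and Smad3, the receptor-regulated Smads that carry the TGF-beta signal, showed no difference larger than the spread between replicates. Smad2 read 8.87 and 9.02 in untreated 1 and 3, and 9.11, 9.19, 9.16, 8.86 and 8.98 in DHA 1 to 5, a log2 fold change of 0.12 (SE 0.12, 95% interval -0.16 to 0.39; limma adjusted p = 0.759). Smad3, whose sign turned when untreated 1, DHA 1 or DHA 4 was left out, read 7.63 and 7.42 in untreated 1 and 3, and 7.32, 7.66, 7.55, 7.29 and 7.60 in DHA 1 to 5, a log2 fold change of -0.04 (SE 0.14, 95% interval -0.35 to 0.27; limma adjusted p = 0.936). In both, DHA arrays lay on each side of the untreated pair. The p-values do not show that these levels were alike, and the intervals allow a change of up to 0.39 in Smad2 and of 0.35 downward in Smad3 on the log2 scale.

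Over the 9 genes, untreated 3 was the lowest array for 5 of the 9, DHA 3 the highest for 5, and DHA 2 the highest for 3. Untreated 3 also had the lowest summed marker signal of meninges and fibroblasts (8215), and DHA 3 the highest (31093). The same order held for the 8 tested markers of smooth muscle and pericytes, which summed to 5419 and 2736 in untreated 1 and 3 and 6179 to 10205 in the DHA samples. Of these 8, 7 were higher with DHA, where 48.2% of all genes were. Tagln, 1 of the 8, was detected on neither untreated array and tested only because DHA arrays detected it, so its direction adds no support. Tgfbr2, Tgfbr3, Tgfb3 and Tgfbi are expressed by fibroblasts and vessel walls, and the part of these markers in their differences was not tested. The 7 tested microglia markers had a median log2 fold change of -0.00. The 6 tested endothelial markers had one of 0.24 (0.13 with dim genes at their bounds). The 5 perivascular macrophage markers were all higher with DHA (48.2% of all genes were), with a median of 0.79 (0.34 with dim genes at their bounds). At an unadjusted p under 0.05, 3 of the 5 were higher, against 5.38% of all genes. Cd163 and Lyve1, detected on neither untreated array, were tested only because DHA arrays detected them, so their direction adds no support. Pf4 and F13a1 were each detected on 1 of the 2 untreated arrays. The summed signal of the 5 markers was 240.2 and 176.2 in untreated 1 and 3 and 220.1 to 461.2 in the DHA samples, of which only DHA 1 overlapped the untreated pair.

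**Figure D3:**
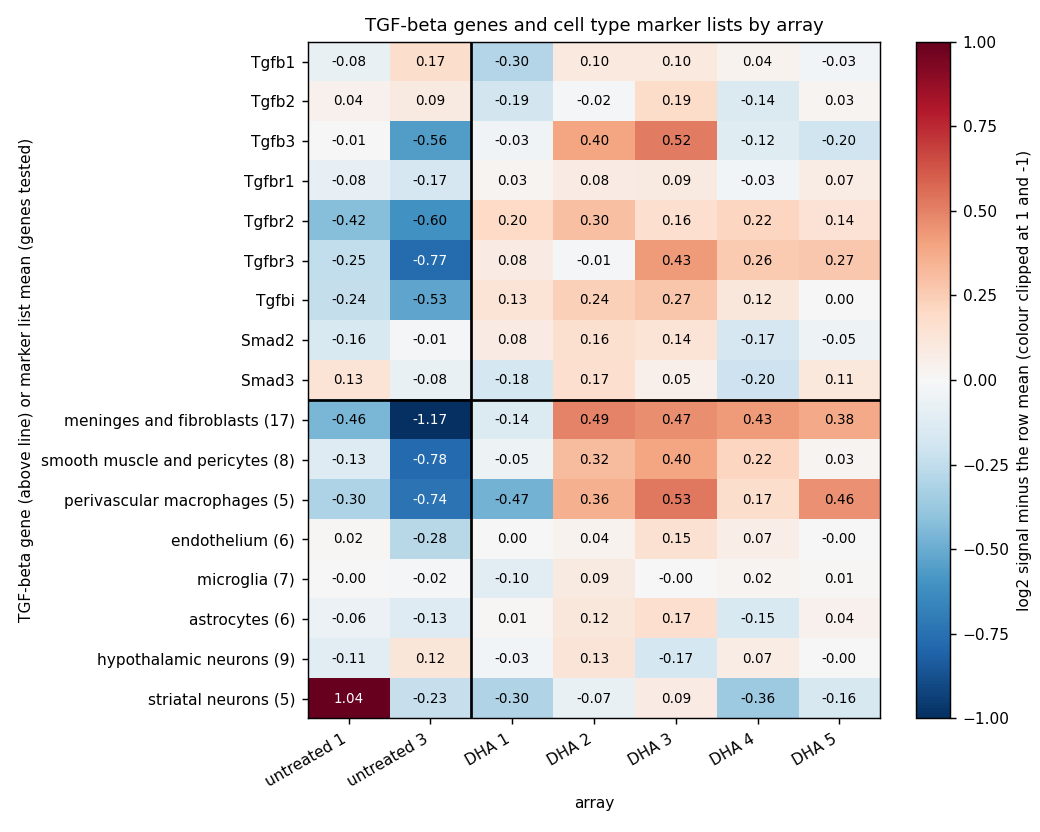
Heat map of log2 signal centred on each gene's mean over the 7 arrays, for the TGF-beta genes (1 row a gene, brightest tested probe) and, below, of the mean log2 level of the marker lists; columns are the 2 untreated and 5 DHA arrays, and the printed numbers are the centred values. Untreated 3 is low for Tgfb3, Tgfbr2, Tgfbr3 and Tgfbi and for the meninges and smooth muscle markers alike.

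By the likeness rule, the genes whose centred log2 levels were nearest to those of the 3 TGF-beta genes with the largest spread over the 7 arrays were listed. For Tgfbr3 these were Cd163 (root mean square difference 0.149), the scavenger receptor that marks perivascular macrophages, Vstm4 (0.150) and Pdlim3 (0.151), an actinin-associated protein of muscle. For Tgfb3 they were Alpl (0.111), the tissue-nonspecific alkaline phosphatase of vessels and meninges, Ncf4 (0.117), a subunit of the phagocyte oxidase, and Recql4 (0.118), a DNA helicase. For Tgfbr2 they were Pigw (0.0932), an enzyme of glycolipid anchor synthesis, Adcy4 (0.0944), an adenylyl cyclase, and Pdzrn3 (0.108), a ubiquitin ligase. Of these, Cd163, Pigw and Recql4 were detected on neither untreated array and Ncf4 on 1 of the 2, so their untreated levels, and with them the likeness, rest on signals not above background. Likeness is over the same 7 arrays, whose marker levels differ, and it says nothing of shared control.

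The promoters of the genes that stand out are shown here because the Smad complex itself reads a short DNA motif, the CAGAC core. The windows run from 250 bases before to 50 after the start site in RefSeq, build GRCm38.p6, and 6 of the 10 genes had an entry. In capitals are matches to CAGAC (the Smad core), GGGCGG (the GC box bound by Sp1) and TATAAA (the TATA box), searched on both strands, so that GTCTG and CCGCCC are the reverse forms. Tgfbr2 (chr9:116175314-116175613, minus strand), the receptor with the clearest difference, and Tgfbi (chr13:56609336-56609635, plus strand), the induced matrix gene, are set against Tgfb2 (chr1:186705940-186706239, minus strand), which overlapped between the groups.
Tgfbr2: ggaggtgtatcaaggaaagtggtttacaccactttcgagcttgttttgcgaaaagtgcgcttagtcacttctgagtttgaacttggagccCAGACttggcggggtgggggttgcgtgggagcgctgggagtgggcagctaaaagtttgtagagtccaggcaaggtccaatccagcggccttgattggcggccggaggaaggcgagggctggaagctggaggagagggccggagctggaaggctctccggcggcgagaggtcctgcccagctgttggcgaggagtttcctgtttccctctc
Tgfbi: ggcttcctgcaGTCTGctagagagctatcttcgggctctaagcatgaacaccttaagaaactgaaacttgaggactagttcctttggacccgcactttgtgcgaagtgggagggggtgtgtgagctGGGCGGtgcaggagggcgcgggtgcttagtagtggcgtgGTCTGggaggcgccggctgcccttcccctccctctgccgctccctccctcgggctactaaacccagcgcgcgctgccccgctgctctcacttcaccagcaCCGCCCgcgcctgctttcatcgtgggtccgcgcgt
Tgfb2: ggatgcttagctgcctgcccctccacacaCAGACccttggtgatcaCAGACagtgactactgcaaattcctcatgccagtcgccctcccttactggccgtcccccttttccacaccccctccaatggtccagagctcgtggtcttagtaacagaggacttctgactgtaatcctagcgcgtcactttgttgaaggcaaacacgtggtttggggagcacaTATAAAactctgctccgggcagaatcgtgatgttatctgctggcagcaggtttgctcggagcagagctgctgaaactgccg

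The Tgfbr2 window held 1 CAGAC, and neither of the other motifs. The Tgfbi window held 2 CAGAC and 2 GGGCGG matches, and the Tgfb2 window 2 CAGAC and 1 TATAAA, the latter at position -31 from the start site. Of all 32851 promoter windows of the same length, 49.6% held CAGAC, 35.7% GGGCGG and 13.6% TATAAA, so a CAGAC match is common and was also present in Tgfb2. Among the others with an entry, Tgfbr1 had 2 windows, 1 with 2 GGGCGG matches and 1 with 1 CAGAC. The Tgfb1 window held 6 GGGCGG matches and the Smad3 window 2, and neither held CAGAC. A match describes these letters and is not evidence of binding.

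A total of 103 other genes of the pathway, on 7 lists, were then followed around the core genes. Of these, 93 had a probe and 73 were tested, with 57 higher (48.2% of all genes were) and 16 lower with DHA, and a median log2 fold change of 0.22 (0.19 with dim genes at their bounds) beside -0.01 for all genes. None of the 73 passed the adjusted threshold in limma (0% of all genes did); 17 were higher and 4 lower at an unadjusted p under 0.05, against 5.38% and 4.52% of all genes. The groups did not overlap with DHA above for 20 and below for 6 of the 73, against 8.65% and 8.79% of all genes. Of the 73, 7 were detected in only 1 group, so their direction adds no support. In these counts, which include those 7, a higher level was the more frequent direction around the core genes too, without a gene past the threshold.

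**Figure D4:**
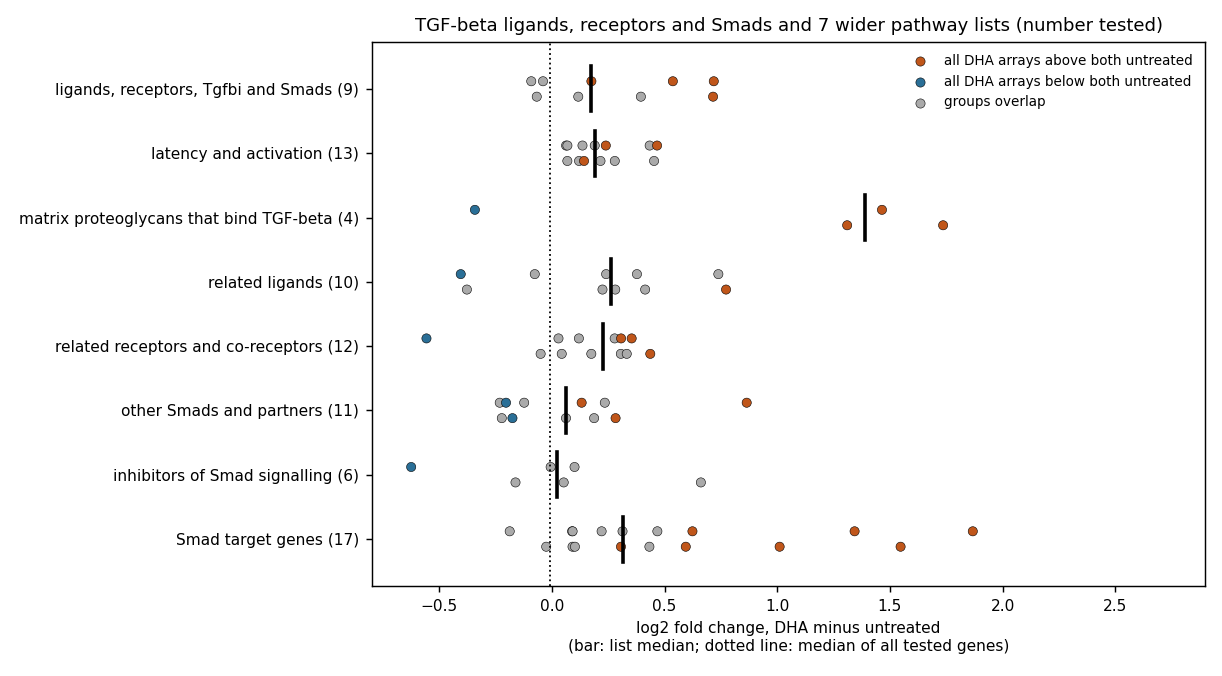
Log2 fold change, DHA minus untreated (horizontal axis), of every tested gene in the core group and in 7 wider pathway lists, with the number tested in parentheses; coloured points are genes whose 5 DHA arrays all lie above or all below both untreated arrays, bars are list medians, and the dotted line is the median of all tested genes. In this processing the matrix proteoglycans have a median of 1.39, the Smad target genes 0.31 and the inhibitors 0.02; on the authors' deposited normalized values the first and second are 0.67 and 0.12.

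The latency and activation genes hold TGF-beta in the matrix or release it. All 13 tested were higher with DHA (48.2% of all genes were), but 0 of the 13 had an unadjusted p under 0.05 (5.38%), and 3 had all DHA arrays above (8.65%). Of the 13, 1 was detected in only 1 group, so its direction adds no support. The median was 0.19, or 0.14 with dim genes at their bounds, and 0.098 on the authors' deposited normalized values. Mmp2, a gelatinase that can activate latent ligand, had a log2 fold change of 0.47 (SE 0.24). Nrros, which anchors latent TGF-beta on microglia, had 0.45 (SE 0.23). Ltbp1, a latent TGF-beta binding protein, had 0.43 (SE 0.20) on its brighter probe, or 0.25 without untreated 3, and -0.09 on the other. Ltbp4, of the same family, had 0.07 (SE 0.16), and -0.10 without untreated 3.

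The 4 tested matrix proteoglycans that bind TGF-beta lay on both sides of 0, with 3 higher and 1 lower, each at an unadjusted p under 0.05. Of all genes, 5.38% were higher and 4.52% lower at that p. Dcn, decorin, the closest relative of biglycan, read 9.97 and 9.32 in untreated 1 and 3 and 10.58 to 11.45 in the DHA samples, a log2 fold change of 1.31 (SE 0.25; limma adjusted p = 0.181), and its other probe gave 1.42. Fmod, fibromodulin, had 1.74 (SE 0.44, limma adjusted p = 0.304). A dimmer Fmod probe, detected on 0 of 2 untreated and 4 of 5 DHA arrays, gave at least 1.37-fold. That probe was tested only because DHA arrays detected it, so its direction adds no support to the brighter probe. Lum, lumican, had 1.46 (SE 0.42, limma adjusted p = 0.332). The brighter Fmod probe and the Lum probe were each detected on only 1 of the 2 untreated arrays. Without untreated 3, which was low for both, the differences were 0.88 for Fmod and 0.71 for Lum; without untreated 1 they were 2.60 and 2.23. Bgn itself had a log2 fold change of -0.34 (SE 0.12; limma adjusted p = 0.417; -0.19 without untreated 1), with every DHA array below both untreated ones. The median over the 4 was 1.39, but it was 0.80 without untreated 3, 1.93 without untreated 1, 0.67 on the authors' deposited normalized values and 0.48 over the genes with a detection p under 0.01 on all arrays. At that last setting the related ligands had the slightly higher median of 0.49. Dcn and Lum are fibroblast genes, Lum was on the marker list, and meningeal and fibroblast markers were higher in the same arrays; their part in these differences was not tested.

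Of the 10 tested related ligands, 7 were higher (48.2% of all genes were), 2 with an unadjusted p under 0.05 (5.38% of all genes), and 1 was lower with one (4.52%). Bmp4 and Bmp7, bone morphogenetic proteins, had log2 fold changes of 0.77 (SE 0.23) and 0.74 (SE 0.31). Bmp7 overlapped between the groups, untreated 1 lying above DHA 1, and its difference was 0.29 without untreated 3 and 1.18 without untreated 1. Inha, the inhibin alpha subunit, had -0.40 (SE 0.13), or -0.21 without untreated 1. The median of the list was 0.26, and 0.089 on the authors' deposited normalized values. Of the 12 related receptors and co-receptors, 10 were higher (48.2% of all genes were), with a median of 0.23 (0.11 with dim genes at their bounds, and 0.079 on the authors' deposited normalized values). Of these 12, 2 were detected in only 1 group, so their direction adds no support. Bmpr1b, a type I receptor for bone morphogenetic proteins, had 0.44 (SE 0.14), or 0.18 without untreated 1. Its other probe gave 0.29, and on it the groups overlapped. Vasn, a cell-surface inhibitor that binds TGF-beta, had 0.31 (SE 0.13). Amhr2, the anti-Müllerian hormone receptor, had -0.56 (SE 0.19) on its brighter probe and -0.12 on the other.

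Among the other Smads and partners, 6 of 11 were higher (48.2% of all genes were) and the median was 0.06. Of the 11, 1 was detected in only 1 group, so its direction adds no support. The exception in size was Dab2, an endocytic adaptor that links the TGF-beta receptors to Smads. It read 8.43 and 8.24 in untreated 1 and 3 and 9.05, 9.27, 9.24, 9.09 and 9.34 in DHA 1 to 5, and every DHA array lay above. The log2 fold change was 0.86 (SE 0.11; limma adjusted p = 0.103), and the second probe gave 0.70. Smad4, the shared partner of Smad2 and Smad3, had 0.13 (SE 0.09), Smad1, which carries bone morphogenetic protein signals, 0.28 (SE 0.10; 0.17 without untreated 1), and Fkbp1a, which binds the type I receptor, -0.20 (SE 0.10). Other tested Smad1 probes gave 0.20 and -0.03, with overlapping groups on each. The probe at -0.03 was detected on 1 of the 2 untreated and 2 of the 5 DHA arrays. On the authors' deposited normalized values and without background correction, Dab2 passed the adjusted threshold.

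The inhibitors of Smad signalling split evenly, with 3 of 6 higher (48.2% of all genes were) and a median of 0.02. Smurf1, a ubiquitin ligase that degrades Smads and receptors, had a log2 fold change of -0.62 (SE 0.14; limma adjusted p = 0.254), but was detected on only 1 of the 5 DHA arrays. Smurf2, its relative, had -0.16 (SE 0.13). Tgif1, a corepressor of Smads which neither untreated array detected, had a DHA mean at least 1.16-fold higher than the lowest detected signal. It was tested only because DHA arrays detected it, so its direction adds no support. Among the 17 tested Smad target genes, 15 were higher (48.2% of all genes were) and 2 lower, with a median of 0.31 (0.12 on the authors' deposited normalized values). At an unadjusted p under 0.05, 8 were higher and 0 lower, against 5.38% and 4.52% of all genes. For 7 all DHA arrays were above, against 8.65% of all genes. Of the 17 targets, 2 were detected in only 1 group, Tagln among them, so their direction adds no support.

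Ccn2, connective tissue growth factor, read 10.51 and 8.95 in untreated 1 and 3 and 10.75 to 11.72 in the DHA samples. All DHA arrays were above, and the untreated arrays were farther apart than the DHA arrays. Its log2 fold change was 1.55 (SE 0.41; limma adjusted p = 0.314), with 0.76 without untreated 3 and 2.32 without untreated 1. Sphk1, sphingosine kinase 1, read 7.33 and 6.09 in untreated 1 and 3 and 7.47 to 9.32 in the DHA samples. DHA 1 lay close to untreated 1. The log2 difference was 1.87 (SE 0.50; limma adjusted p = 0.316), with 1.25 without untreated 3 and 2.49 without untreated 1. Tagln, an actin-binding protein of smooth muscle, was detected in 5 of 5 DHA and 0 of 2 untreated samples. Its DHA mean was at least 1.48-fold higher than the lowest detected signal, with a limma adjusted p of 0.0968. It was tested only because DHA arrays detected it, so its direction adds no support, and that p-value rests on untreated signals not above background. Tagln is also on the smooth muscle list. Without the genes that are on a marker list, 12 of 14 targets were higher (48.2% of all genes were), with a median of 0.26. At an unadjusted p under 0.05, 6 of the 14 were higher, against 5.38% of all genes, and 1 of the 14 was detected in only 1 group.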

How the data were processed

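Hypothalamus RNA of 7 mice, 2 untreated and 5 fed DHA, was analysed. Per the file headers, the deposited unnormalized table gives, for every probe on every array, an intensity and a detection p-value; its values are linear, with no background subtracted. The authors' normalized table, a linear intensity, served as an alternative; its DHA replicate 5 column equals the unnormalized signals (largest difference 0). Tools named in the submitters' processing notes are R 2.15.0 and lumi 2.10.0; which normalization was chosen, the sources used here do not give. A further 2 per-sample columns match no sample and were not used.

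Normexp correction from the detection p-values (offset 16), quantile normalization and log2 were run in limma 3.58.1 (R 4.3.3); the offset shrinks the differences of dim probes. The annotation gave 23978 of 25697 probes 1 gene symbol, 0 several and 1719 none. Probes detected (p under 0.05) on 2 or more arrays, 15284 in all, were tested by lmFit and eBayes, with two-sided p-values, adjusted by Benjamini-Hochberg over these probes, threshold 0.05. The brightest tested probe stood for a gene in counts. Where no array of a group detected a probe, the lowest detected signal set a bound. The number of arrays limits the precision, and since no label names the animals, p-values may measure only the spread between these samples. No batch is recorded in the labels.

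The genes and lists were chosen with earlier results of these data known. Named were the 10 genes with every probe; from each list the 3 tested genes of smallest p, plus Dcn, Bgn, Ltbp1, Ltbp4, Smad4 and Ccn2 (a further item of this rule is not reported here); and, for the 3 genes with the largest spread, the 3 genes nearest in level over the arrays. Alternatives were the authors' deposited values, other background corrections, scalings, filters and variance models, a replicate block, and each array left out. The fit was tested on simulated data.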

Additional observations from a re-analysis of the deposited data

Results flagged for a closer look

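In 4 of the 35 probes whose 5 DHA arrays were examined for a single distant array, 1 array lay apart from the other 4, its gap to the nearest exceeding 0.71 of the whole range; chance flags about 1 in 20 groups. None was a probe of the TGF-beta ligands, receptors, Smads or Tgfbi. For Fmod, DHA 1 was low, at 7.07 against 7.92 to 8.05 in the others (gap over range 0.862). For Ltbp4, DHA 5 was low, at 8.63 against 9.01 to 9.11 (0.805). For Ltbp1 the same array, DHA 5, was low, at 5.67 against 6.21 to 6.37 (0.78). For Bgn, DHA 4 was low, at 8.03 against 8.23 to 8.31 (0.727).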

How the results depend on the processing

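The design has 2 untreated arrays, so each difference leans on both, and leaving one out assumes that the lone sample varies like the DHA group. A total of 16 alternative settings were run, 7 of them leaving out 1 array; 318 of 367 recomputed results kept their direction and their side of the threshold or stayed within the spread between replicates. The number of probes past the adjusted threshold of 0.05 in limma went from 0 to 12 on the authors' deposited values, 12 without background correction, 1 with an offset of 50 and 52 (46 higher, 6 lower) with an intensity trend and robust variances, and from 0 to 3 when 1 array was left out. Probes of the TGF-beta genes past the threshold numbered 1 (Tgfbr2) on the authors' deposited values, 1 without background correction and 1 with the trend. Genes of the wider lists past it numbered 1 (Dab2), 1 (Dab2) and 2 (Dab2 and Tagln) under those settings. Tagln was detected on neither untreated array, so its call rests on untreated signals not above background. With the trend the second Dcn probe passed too. The log2 fold change of Tgfbr2 ranged from 0.58 to 0.81 and its adjusted p from 0.0048 to 0.623. The median over the 9 genes stayed between 0.13 and 0.22. The median of the wider lists, 0.22, was 0.094 on the authors' deposited values, 0.090 without background correction, 0.13 with an offset of 50 and 0.12 with no detection filter, and 0.17 to 0.22 with 1 array left out. Directions turned for values near 0: the inhibitors' median was -0.0026 with arrays scaled to a common median and -0.0055 with no filter, and that of the other Smads and partners -0.0083 with no filter. With 1 array left out, Smad3 ranged from -0.14 to 0.07 (0.065 without untreated 1, 0.0031 without DHA 1, 0.0082 without DHA 4) and Tgfb1 from -0.19 to 0.06 (0.059 without untreated 3, 0.0012 without DHA 1). The cause was not tested. Alternatives for the named genes of the wider lists were chosen after seeing the data. On the authors' deposited values the log2 fold changes of several moved towards 0 by over 1.5 times: Fmod 0.79, Lum 0.55, Sphk1 1.10, Bmp4 0.42, Bmp7 0.36, Mmp2 0.26, Nrros 0.23, Ltbp1 0.14, Inha -0.20, Amhr2 -0.17, Smurf1 -0.16 and Smurf2 -0.051. Those of Tagln and Tgif1, which neither untreated array detected, moved as far, from 1.01 to 0.27 and from 0.66 to 0.19. The groups share only the replicate numbers 1 and 3, whose deviations correlated at 0.0034 and 0.034; with the replicate block, which leaves 1 residual degree of freedom, 0 probes passed and Tgfbr2 had a log2 fold change of 0.70 with an adjusted p of 0.623. Signals near background limit Tgfb1 and the dimmer probes of Tgfbr3 and Tgfbi.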
